A study of Mus musculus with 30 samples.

Results

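The tumors grown from the primary cell line MCA-943 (4 tumors) were compared with those grown from MCA-972 (4 tumors), by the names in their titles, which selected 8 of the 30 tumors of the series. Both lines were derived from fibrosarcomas that the carcinogen methylcholanthrene (MCA) had induced, each from a single primary tumor passaged briefly in culture, and the cells were then grown again in C57BL/6 mice. The labels give the mouse strain as Ncr1Cre for MCA-943 and as Ncr1Cre R26DTA for MCA-972, and mark MCA-943 as not sensitive and MCA-972 as sensitive to natural killer (NK) cells. They do not say whether this strain is that of the mouse with the primary tumor or of the transplant host. In Ncr1Cre R26DTA mice a toxin gene is switched on in cells that express Ncr1, the gene of the NK cell receptor NKp46. The series text states growth in wild-type and in NK cell deficient mice, but the letters of the titles (W in 1 and a in 3 MCA-943 tumors, a in 3 and none in 1 MCA-972 tumor) are explained by neither the labels nor the methods, and no condition was read from them. In the paper's transplantations some C57BL/6 mice received an antibody that depletes cells with the surface marker NK1.1, NK cells among them. Whether hosts of these 8 tumors were treated is not stated. Hematopoietic cells had been depleted with CD45 beads before RNA extraction. The question was in which genes and pathways a non-sensitive line differs from a sensitive one. Each line stands for 1 primary tumor, so the p-values below measure the spread between tumors of a line and not between lines of a kind.

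Transplanted fibrosarcoma cells are malignant mesenchymal cells, and a tumor also holds host fibroblasts, vessels and leukocytes. Interferons, released by leukocytes and by stressed cells, bind receptors whose JAK kinases activate STAT transcription factors, which switch on interferon-stimulated genes, among them the genes that load peptides on MHC class I molecules. NK cells are restrained by receptors for MHC class I and are triggered by ligands that stressed cells display. MCA-induced sarcomas carry many mutations and chromosome changes that differ from one tumor to the next.

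The MCA-943 libraries held between 30025426 and 45111926 counts on genes and the MCA-972 libraries between 37623787 and 40088940. Values are given as CPM, counts per 1000000 after edgeR's TMM normalization, in the order W-2G, a-1D, a-1G and a-R for MCA-943 and a-1, a-1G, 2G and a-R for MCA-972. A limit of 3 counts was between 0.0734 and 0.113 CPM in these libraries, and such limits, like the intervals below, cover counting error only. Tumors of a line were alike, with a correlation of log2 CPM across genes between 0.987 and 0.993. The library numbers of the series form 3 series of consecutive numbers, and all MCA-943 tumors lie in the third while all MCA-972 tumors lie in the first. Line, number series and labelled strain therefore cannot be told apart directly, and a model with the number series as a covariate rests on the tumors of MCA-948 and MCA-969, which span series. In the second series all MCA-969 tumors carry the letter W and all MCA-948 tumors the letter a. The covariate is therefore partly tied to the unexplained title letter as well.

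Of 16862 tested genes, 4322 (25.6%) differed between the lines at an adjusted p-value under 0.05 in edgeR's quasi-likelihood test and a log2 fold change of at least 1 in size. Such genes are called below. Of these, 2065 (12.2%) were higher in MCA-943 and 2257 (13.4%) were higher in MCA-972. Counts of called list members below are to be read beside these shares. The median log2 fold change of all tested genes, MCA-943 over MCA-972, was -0.01, and fold changes below have this direction. With the number series in the model 1812 genes were higher in MCA-943 and 1529 in MCA-972, of which 1328 and 1159 were also called without it. Against each of the 4 other lines of the series, MCA-943 was above all in 718 genes (4.26%) and below all in 581 (3.45%), while MCA-972 was above all in 417 (2.47%) and below all in 185 (1.1%). These counts share the tumors of both lines. Some genes named below overlap another gene, such as Irf7 and Phrf1, B2m and Patl2, Tap1 and Psmb9, Vsir and Cdh23, Jun and Junos, Plet1 and Plet1os, or Erbb2 and Mien1, and since the strand setting of the counting is not given, reads in the shared stretch cannot be assigned with certainty.

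Among protein-coding genes with at least 10 CPM in the higher line, the largest fold changes toward MCA-943 were those of Msln, which encodes the mesothelial surface protein mesothelin, of Dynap, of Plet1, which encodes a surface protein of placental and epithelial progenitor cells, and of Tnfrsf26, a decoy-like TNF receptor. Plet1 measured 141, 103, 118 and 126 CPM in MCA-943 and 0.355, 0.318, 0.313 and 0.306 CPM in MCA-972 (log2 fold change 8.55 ± 0.42 (SE), adjusted p = 1.79e-15). All MCA-943 tumors lay far above all MCA-972 tumors. The largest toward MCA-972 were those of Acan, St8sia2, Angptl7 and Fndc3c1. St8sia2, a sialyltransferase that makes polysialic acid, had a single count in the MCA-943 tumors against means of 22.2 CPM in MCA-972, a ratio of 3056 with a 95% counting interval of 548 to 120701. Ptprf, a receptor tyrosine phosphatase, measured 0.237, 0.247, 0.151 and 0.122 CPM in MCA-943 and 127, 116, 132 and 114 CPM in MCA-972 (log2 fold change -9.31 ± 0.28 (SE), adjusted p = 2.07e-20). Its mean was between 46 and 89.5 CPM in the other 3 lines, and MCA-943 was called below each of the 4 other lines.

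**Figure D1:**
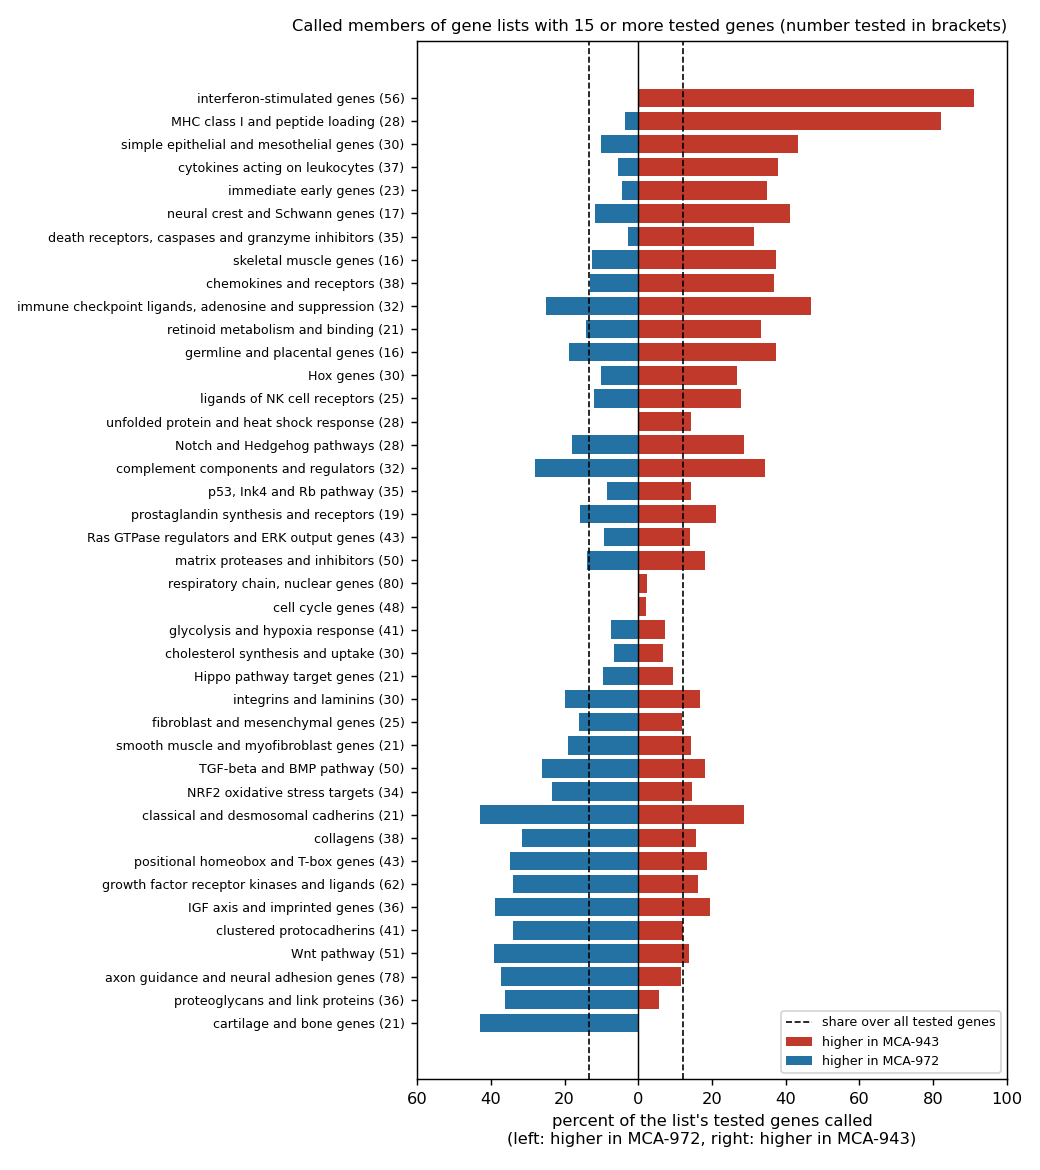
Share of the tested genes of each list that were called higher in MCA-943 (red, to the right) or higher in MCA-972 (blue, to the left), for lists with 15 or more tested genes, whose number is in brackets; dashed lines mark the shares over all tested genes, 12.2% and 13.4%. Lists are ordered by the difference of the 2 shares. Red bars are longest for interferon-stimulated and MHC class I genes. Blue bars are longest for cartilage, cadherin, Wnt and imprinted genes, although 28.6% of the cadherins were called toward MCA-943.

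Interferon-stimulated genes were higher in MCA-943 almost without exception. Of 57 listed genes 56 were tested, 51 were called higher in MCA-943 and 0 were called lower, and their median log2 fold change was 2.48. All 56 had their highest mean of the 5 lines in MCA-943. Irf7, the transcription factor that amplifies interferon production, measured 126, 142, 62.4 and 243 CPM in MCA-943 and 7.23, 10.6, 8.89 and 10.5 CPM in MCA-972 (log2 fold change 3.94 ± 0.53 (SE), adjusted p = 3.17e-07). Gbp2, a GTPase that attacks membranes of invading microbes, measured 295, 353, 203 and 598 CPM against 42.8, 62.3, 46.9 and 58.2 CPM (log2 fold change 2.78 ± 0.46 (SE), adjusted p = 9.45e-06). The groups did not overlap in either gene, and the a-1G tumor was lowest and the a-R tumor highest among MCA-943 tumors in both. Oas2, a sensor of double-stranded RNA, was at 46.9, 57.4, 22.9 and 71.5 CPM in MCA-943 and 0.546, 1.76, 1.3 and 0.835 CPM in MCA-972 (log2 fold change 5.47 ± 0.62 (SE), adjusted p = 1.99e-08), although its call was lost with the number series in the model. The list held genes driven mainly by type I interferon, such as Ifit3 (means 106 and 14 CPM), Isg15 (83.6 and 21.2 CPM) and Bst2, which tethers virus particles to cells (229 and 17.9 CPM). It also held GTPases driven mainly by interferon-gamma, such as Gbp2 above, Iigp1 (273 and 19.6 CPM) and Tgtp2 (57 and 1.69 CPM), the last a near-identical copy of Tgtp1 whose reads the counting could have split. The 5 genes not called were Isg20, Ifit2, Ifi27, Rsad2 and Eif2ak2. The summed level of the list was 3403 to 7956 CPM in MCA-943 and 1030 to 1297 CPM in MCA-972. In the model with the number series 33 of the 56 genes were called, all 56 fold changes were positive and the median was 2.67. Without the MCA-943 tumors W-2G and a-1D, which had the most leukocyte RNA, 49 were called.

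Promoter sequence was set beside these genes because interferon acts through short DNA motifs. In RefSeq promoters of build GRCm38.p6, a pair of GAAA words separated by any 2 bases, the core of the interferon-stimulated response element (ISRE) bound by STAT and IRF factors, occurred on either strand within 250 bases before the start in 21 of the 36 called interferon-stimulated genes that have a promoter there (58.3%). Among all tested interferon-stimulated genes with a promoter it occurred in 22 of 40 (55%). The share is thus a trait of the list, and no difference between the lines was read from it. The motif occurred in 92 of 1374 genes called higher in MCA-943 (6.7%) and in 41 of 1461 called higher in MCA-972 (2.81%). It occurred in 381 of 11688 tested genes (3.26%) and in 978 of 32841 promoters in all (2.98%). The letters TTCNNNGAA on either strand, a gamma-activated sequence (GAS) bound by STAT dimers, occurred in 10 of the 36 (27.8%). They occurred in 13 of the 40 tested interferon-stimulated genes (32.5%), in 837 of all tested genes (7.16%) and in 2306 of all promoters (7.02%). Of 18 called MHC class I and loading genes with a promoter, 3 held the ISRE letters (16.7%) and 2 the GAS letters (11.1%). A match describes the letters in the window only. Promoters of Psmb9, Tap1, H2-K1 and Cxcl9 were also looked at and held neither motif. For some genes with a match 120 bases of the promoter are given, read 5′ to 3′ on the strand of the gene with the matches in capitals. From the interferon-stimulated list these are Isg15 (overlapping ISRE cores, chr4:156200832-156200951, minus strand), Ifit3 (separate ISRE cores, chr19:34583318-34583437, plus strand) and Igtp (a GAS and an ISRE core that lie side by side, chr11:58199436-58199555, plus strand). From other lists they are B2m (an ISRE core, chr2:122147493-122147612, plus strand) and the chemokine gene Cxcl10 (an ISRE core, chr5:92349020-92349139, minus strand).
Isg15: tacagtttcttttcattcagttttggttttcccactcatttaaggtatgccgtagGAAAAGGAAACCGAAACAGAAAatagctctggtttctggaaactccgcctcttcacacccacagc
Ifit3: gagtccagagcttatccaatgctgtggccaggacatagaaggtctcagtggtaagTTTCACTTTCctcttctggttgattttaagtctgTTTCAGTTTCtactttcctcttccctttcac
Igtp: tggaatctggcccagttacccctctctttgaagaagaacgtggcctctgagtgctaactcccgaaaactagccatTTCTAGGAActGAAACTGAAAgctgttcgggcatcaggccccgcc
B2m: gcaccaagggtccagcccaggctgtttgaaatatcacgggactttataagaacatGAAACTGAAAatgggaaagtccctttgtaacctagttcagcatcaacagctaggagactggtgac
Cxcl10: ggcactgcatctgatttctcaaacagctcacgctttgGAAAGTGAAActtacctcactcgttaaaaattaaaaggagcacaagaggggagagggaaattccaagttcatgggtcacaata

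The MHC class I pathway, which displays peptides from inside the cell and engages inhibitory NK cell receptors, was higher in MCA-943 from the heavy chains to the proteasome. Of 28 tested genes 23 were called higher in MCA-943 and 1 lower, with a median log2 fold change of 2.92. H2-K1, a classical heavy chain, measured 2193, 2020, 1628 and 2522 CPM in MCA-943 and 51.5, 117, 81.5 and 87.7 CPM in MCA-972 (log2 fold change 4.63 ± 0.26 (SE), adjusted p = 1.66e-14). H2-D1, the other classical heavy chain of this strain and close to H2-K1 in sequence, measured 2681, 2419, 2091 and 2914 CPM against 94.7, 180.3, 136 and 155 CPM (log2 fold change 4.16 ± 0.20 (SE), adjusted p = 7.22e-16). B2m, the light chain shared by all class I molecules, measured 3526, 3398, 2955 and 3847 CPM against 458, 650.2, 534 and 585 CPM (log2 fold change 2.62 ± 0.16 (SE), adjusted p = 6.31e-14). In all these genes the lowest MCA-943 tumor was several fold above the highest MCA-972 tumor. The other lines lay between or below, with mean H2-K1 levels of 22 CPM in MCA-948, 328 CPM in MCA-969 and 1022 CPM in MCA-970. Of these MCA-969 is a non-sensitive line and MCA-948 and MCA-970 are sensitive ones, so H2-K1 did not order the lines by sensitivity. B2m was likewise higher in MCA-970 (1997 CPM) than in MCA-969 (872 CPM).

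The transporter and regulator of the class I pathway followed the heavy chains. Tap1, a subunit of the peptide transporter into the endoplasmic reticulum, measured 188, 177, 127 and 249 CPM in MCA-943 and 7.78, 14, 13 and 14.2 CPM in MCA-972 (log2 fold change 3.92 ± 0.41 (SE), adjusted p = 5.27e-09). Nlrc5, the transactivator of class I promoters, measured 67.2, 74.9, 52.8 and 97.7 CPM against 7.62, 13.8, 10.6 and 9.02 CPM (log2 fold change 2.83 ± 0.26 (SE), adjusted p = 3.16e-10). Neither gene had overlapping values between the lines. The immunoproteasome subunit Psmb9 had means of 48 and 2.13 CPM, and the non-classical chain H2-T23 (Qa-1), a ligand of the inhibitory NKG2A receptor of NK cells, had means of 156 and 4.34 CPM. H2-Q6 and H2-Q7 had the largest fold changes of the list (6.48 and 6.06 on the log2 scale) but are nearly identical copies whose reads cannot be separated with certainty. The chaperones Calr, Canx and Pdia3 and the class I-like gene Mr1 were not called. Cd1d1, which presents lipids to NKT cells, was lower in MCA-943 (11 against 30.3 CPM, log2 fold change -1.46 ± 0.15 (SE), adjusted p = 4.30e-09). In the model with the number series 21 were called higher, and without the 2 leukocyte-rich MCA-943 tumors 23 were. Of 8 tested MHC class II genes 0 were called.

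**Figure D2:**
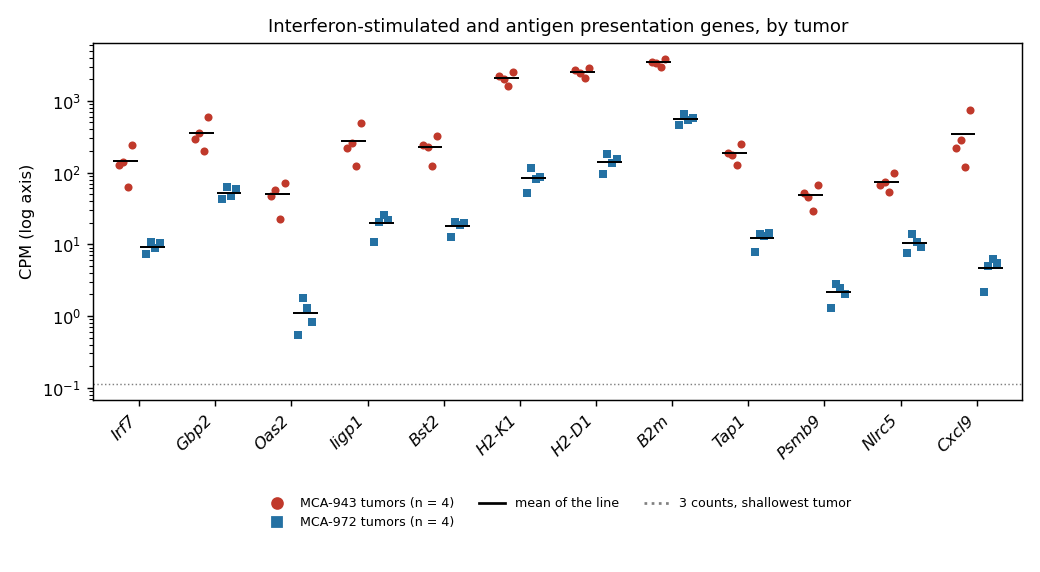
Level in CPM (log axis) of 12 interferon-stimulated and antigen presentation genes in each tumor; red circles are MCA-943 tumors, blue squares MCA-972 tumors, black bars the mean of the line, and the dotted line the limit of 3 counts in the shallowest library. The 12 genes were picked among called genes (25.6% of all tested genes), so little overlap was to be found, and the groups do not overlap in any of them. The a-1G tumor, the third red circle of each gene, is the lowest of MCA-943.

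Genes for interferons themselves were near the limit of detection. Ifng, which encodes interferon-gamma, was at 0.576, 0.296, 0 and 0.245 CPM in MCA-943 and 0.0273, 0.0244, 0 and 0.0278 CPM in MCA-972 and did not pass the filter on low counts, and neither did the type I interferon gene Ifnb1. Chemokines that interferon-gamma induces were well measured. Cxcl9, which attracts T and NK cells, was at 220.5, 288, 118 and 737 CPM in MCA-943 and 2.13, 5.01, 6.18 and 5.54 CPM in MCA-972 (log2 fold change 6.18 ± 0.88 (SE), adjusted p = 9.08e-07), with a wide spread within MCA-943 and a call that was lost with the number series in the model. Over all chemokines and their receptors 14 of 38 tested genes were higher in MCA-943 and 5 in MCA-972 (7 and 2 with the number series), and Cxcl10 (means 489 and 214 CPM), Cxcl16 (37.8 and 6.9 CPM), Ccl9 (47.7 and 3.1 CPM) and Ccl7 (209.8 and 58 CPM) were among those higher in MCA-943. Toward MCA-972 lay the scavenging receptors Ackr1, Ackr3 and Ackr4 and the neutrophil attractant Cxcl3. Of 37 tested cytokines that act on leukocytes 14 were higher in MCA-943 and 2 in MCA-972 (12 and 1 with the number series), with a median log2 fold change of 0.40. Il15, the growth and survival factor of NK cells, measured 39.5, 40.8, 34.9 and 49.96 CPM in MCA-943 and 2.48, 3.06, 2.66 and 2.81 CPM in MCA-972 (log2 fold change 3.90 ± 0.30 (SE), adjusted p = 5.68e-12), with no overlap. Tnfsf9, the ligand of the costimulatory receptor 4-1BB, measured 12.3, 10.9, 17.6 and 11.5 CPM against 0.0819, 0.0489, 0.0782 and 0.0835 CPM (log2 fold change 7.42 ± 0.40 (SE), adjusted p = 6.68e-15). Il7, a lymphocyte survival factor, had means of 5.77 and 0.47 CPM, and Tnfsf13b, the B cell factor BAFF, had means of 16.8 and 1.24 CPM.

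Leukocyte transcripts were low after the bead depletion but not equal between tumors, and in bulk RNA fewer cells of a type and less RNA per cell cannot be told apart. Ptprc, which encodes CD45, measured 25.1, 18.7, 3.14 and 2.94 CPM in MCA-943 and 1.75, 5.28, 8.42 and 2.004 CPM in MCA-972 (log2 fold change 1.51 ± 0.92 (SE), adjusted p = 0.166), so it was high in W-2G and a-1D only and did not pass the test. The 10 leukocyte markers summed to 29.9 to 147 CPM in MCA-943 and 12.6 to 43.0 CPM in MCA-972, and 3 of the 10, Cd53, Cd52 and Lcp1, were called higher in MCA-943. Leaving out each tumor in turn gave 1 to 5 leukocyte calls, with 1 without W-2G, without a-1D, or without the MCA-972 tumor a-1 or a-R. Without W-2G and a-1D together 1 was called, 2 of the 10 leukocyte markers were on the MCA-943 side and their median log2 fold change was -0.46. Of 12 NK cell and ILC1 markers 11 were called higher in MCA-943, and most of these calls rested on W-2G, the only one of these tumors with the letter W. Ncr1 was at 3.29, 0.0987, 0.0378 and 0.318 CPM in MCA-943 and had 0 counts in all MCA-972 tumors, with 97 counts in W-2G and 1 to 13 in the other MCA-943 tumors. Gzma, a granzyme of cytotoxic cells, was at 6.78, 1.06, 0.642 and 0.955 CPM in MCA-943 and 0, 0.0244, 0.339 and 0.0278 CPM in MCA-972 (log2 fold change 4.53 ± 1.61 (SE), adjusted p = 0.0182). Without W-2G 3 of the NK cell markers were called, without the MCA-972 tumor a-1 7, without the MCA-972 tumor a-1G 6, without W-2G and a-1D 2, and with the number series in the model 0. The summed NK cell list did not separate the lines (55.6 to 95.9 and 56.7 to 67.2 CPM) because Klra4 alone made up most of it in every tumor. Of 7 tested T cell markers 5 were called higher in MCA-943 (1 with the number series, 3 without the MCA-972 tumor a-1). Lck, a kinase of T cell receptor signalling, was at 5.52, 2.64, 2.23 and 3.16 CPM in MCA-943 and 0.0546, 0.122, 0.313 and 0.251 CPM in MCA-972 (log2 fold change 4.17 ± 0.44 (SE), adjusted p = 3.64e-09). Unlike for Ptprc, every MCA-943 tumor was above every MCA-972 tumor. In Lck MCA-972 was called below every other line, while MCA-943 was not called above every other line. No marker of macrophages (0 of 12), endothelial cells (0 of 12), pericytes (0 of 6), B cells (0 of 4) or red blood cells (0 of 5) was called at this threshold. The part of leukocyte RNA in the interferon and cytokine differences was not tested beyond the values without W-2G and a-1D.

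Genes of immune checkpoints, adenosine and suppression split between the lines, with 15 of 32 tested genes higher in MCA-943 and 8 in MCA-972 (11 and 5 with the number series) and a median log2 fold change of 0.77. Cd274 (PD-L1), the ligand of PD-1, measured 12.8, 16.2, 9.34 and 25.4 CPM in MCA-943 and 1.2, 1.76, 2.42 and 2.65 CPM in MCA-972 (log2 fold change 2.99 ± 0.49 (SE), adjusted p = 6.80e-06). Cd80, a ligand of CD28 and CTLA-4, measured 27.7, 22.1, 22.9 and 22.3 CPM against 0.0819, 0.269, 0.547 and 0.334 CPM (log2 fold change 6.25 ± 0.45 (SE), adjusted p = 2.59e-12). Vsir (VISTA), an inhibitory checkpoint of the B7 family, measured 37.5, 32.7, 35.3 and 29.2 CPM against 7.34, 8.17, 6.2 and 9.05 CPM (log2 fold change 2.13 ± 0.27 (SE), adjusted p = 1.10e-07). In these 3 genes all MCA-943 tumors were above all MCA-972 tumors. Tnfsf11 (RANKL) was at 19.6, 13.5, 13.4 and 14.7 CPM in MCA-943 and 4.64, 3.08, 6.1 and 3.54 CPM in MCA-972 (log2 fold change 1.82 ± 0.62 (SE), adjusted p = 0.0142). Its call was lost with the number series in the model and without W-2G and a-1D, and its decoy receptor Tnfrsf11b was lower in MCA-943 (means 4.65 and 24.9 CPM). Arg1, the arginase of suppressive myeloid cells, measured 30.3, 31.7, 32.1 and 26 CPM against 0.846, 1.22, 1.04 and 0.473 CPM (log2 fold change 5.05 ± 0.46 (SE), adjusted p = 3.19e-10), whereas the mitochondrial arginase Arg2 was higher in MCA-972 (means 0.0331 and 1.38 CPM). The ectoenzymes that make adenosine from ATP pointed in opposite directions. Entpd2, which cuts ATP, measured 65.4, 51.7, 58.8 and 62.1 CPM in MCA-943 and 0.164, 0.318, 0.261 and 0.195 CPM in MCA-972 (log2 fold change 7.95 ± 0.46 (SE), adjusted p = 3.20e-14). Nt5e (CD73), which releases adenosine from AMP, measured 10.5, 11.1, 14.3 and 10.9 CPM against 386, 259, 289 and 299 CPM (log2 fold change -4.72 ± 0.37 (SE), adjusted p = 2.29e-11).

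Ligands of NK cell receptors were called in 7 of 25 tested genes toward MCA-943 and in 3 toward MCA-972 (5 and 2 with the number series), with a median log2 fold change of 0.54. Nectin2, a ligand of the activating receptor DNAM-1 and of the inhibitory receptor TIGIT, measured 32.2, 33.3, 37.3 and 28.6 CPM in MCA-943 and 1.39, 2.84, 2.01 and 2.92 CPM in MCA-972 (log2 fold change 3.84 ± 0.18 (SE), adjusted p = 6.83e-16). The other 3 lines were at 20.9 to 34.6 CPM, and MCA-972 was called below each of the 4 other lines. Icam1, the ligand of the integrin LFA-1, measured 55.4, 36.2, 36.5 and 58.5 CPM against 4.39, 5.99, 5.34 and 4.87 CPM (log2 fold change 3.18 ± 0.36 (SE), adjusted p = 1.69e-08). Raet1d, which encodes a RAE-1 ligand of the activating receptor NKG2D, measured 0, 0.123, 0.0378 and 0.147 CPM in MCA-943 and 1.61, 2.4, 1.98 and 2.23 CPM in MCA-972 (log2 fold change -4.55 ± 0.64 (SE), adjusted p = 6.15e-07), and it shares sequence and an overlap with Raet1e, also higher in MCA-972 (means 0.491 and 1.17 CPM). Of 35 tested genes for death receptors, caspases and granzyme inhibitors 11 were higher in MCA-943 and 1 in MCA-972 (6 and 1 with the number series). Fas, the receptor of Fas ligand, was at 11.3, 9.08, 8.54 and 12.3 CPM in MCA-943 and 2.84, 2.49, 2.87 and 2.78 CPM in MCA-972 (log2 fold change 1.91 ± 0.19 (SE), adjusted p = 2.16e-09). Serpinb9, an inhibitor of granzyme B, was at 48, 51.2, 38.4 and 58.9 CPM against 10.3, 18, 15.8 and 15.8 CPM (log2 fold change 1.71 ± 0.28 (SE), adjusted p = 6.58e-06). The calls of Fas and Serpinb9 were lost with the number series in the model, while Ripk3, a kinase of necroptosis, kept its call (means 103 and 13.9 CPM). Among 32 tested complement genes, 11 were higher in MCA-943, including C3 (199 and 12.2 CPM) and C2 (42.5 and 5.79 CPM), and 9 were higher in MCA-972, including the protease Masp1 (2.94 and 79.2 CPM). These counts were 7 and 4 with the number series.

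Differences also followed the position of genes on chromosomes. Cdkn2a, which encodes the tumor suppressors p16INK4A and p19ARF, measured 5.42, 28.1, 8.54 and 30.02 CPM in MCA-943 and 476, 529, 415 and 418 CPM in MCA-972 (log2 fold change -4.66 ± 0.34 (SE), adjusted p = 5.51e-12). Its neighbor Cdkn2b, which encodes p15INK4B, measured 0.779, 2.44, 1.44 and 3.97 CPM against 56.5, 72.8, 56.5 and 48.3 CPM (log2 fold change -4.72 ± 0.28 (SE), adjusted p = 4.51e-14). Cdkn2a was between 444 and 631 CPM in the other 3 lines, and MCA-943 was called below each of the 4 other lines. Mtap, next to Cdkn2a on chromosome 4, measured 209, 212, 204 and 244 CPM and 215, 267, 224 and 199.7 CPM and was not called (log2 fold change -0.06 ± 0.14 (SE), adjusted p = 0.755). Among 35 tested genes of the p53, Ink4 and Rb pathway 5 (14.3%) were higher in MCA-943 and 3 (8.57%) in MCA-972. The shares over all tested genes were 12.2% and 13.4%. Those higher in MCA-943 were Fas, Phlda3, Bbc3, Bax and Pmaip1, and those higher in MCA-972 were Perp, Cdkn2a and Cdkn2b. The other 27 were not called, and no shift of p53 targets as a class was read from these calls. Bbc3 and Bax lie on chromosome 7, whose shift is given below. Bax means were 27.8 CPM in MCA-943, 20.3 to 26.8 CPM in the other 3 lines and 11.7 CPM in MCA-972.

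Farther along chromosome 4, a stretch of 4.86 Mb from Eqtn to Alg6 (GRCm38, chr4:94907267-99763460) was higher in MCA-972 nearly gene by gene. Of its 28 tested genes 26 were called higher in MCA-972 and 0 higher in MCA-943, with a median log2 fold change of -3.24, and the 2 not called were Gm12693 and Gm12696. Jun, the AP-1 transcription factor, measured 2653, 2603, 2481 and 2413 CPM in MCA-943 and 8322, 7536, 7724 and 13704 CPM in MCA-972 (log2 fold change -1.88 ± 0.18 (SE), adjusted p = 5.92e-10). Usp1, a deubiquitinase of DNA repair, measured 82.2, 91.4, 81.2 and 103 CPM against 835, 554, 486 and 828 CPM (log2 fold change -2.92 ± 0.18 (SE), adjusted p = 5.74e-14). Every MCA-972 tumor was above every MCA-943 tumor in these genes and in the histone deubiquitinase Mysm1 (24.5, 26.2, 25.7 and 25.2 CPM against 268, 209, 344 and 268 CPM). The stretch was high in MCA-972 and not low in MCA-943, since its median log2 fold change was 3.99, 3.08 and 3.36 for MCA-972 over MCA-948, MCA-969 and MCA-970 but 0.03, 0.07 and 0.05 for MCA-943 over the same lines. It took 1.1 to 1.79% of all counts in MCA-972 tumors and 0.268 to 0.288% in MCA-943 tumors. On both sides the difference ended abruptly. Of the 10 tested genes before Eqtn 2 were higher in MCA-972 and 2 in MCA-943, with a median of -0.10, and Plaa, Ift74 and Tek were not called. Of the 10 after Alg6 2 were higher in MCA-972 and 0 in MCA-943, with a median of -0.16, and Itgb3bp, the next tested gene, had means of 7.92 and 7.33 CPM. With the number series in the model the median was -2.69 and 16 genes stayed called.

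**Figure D3:**
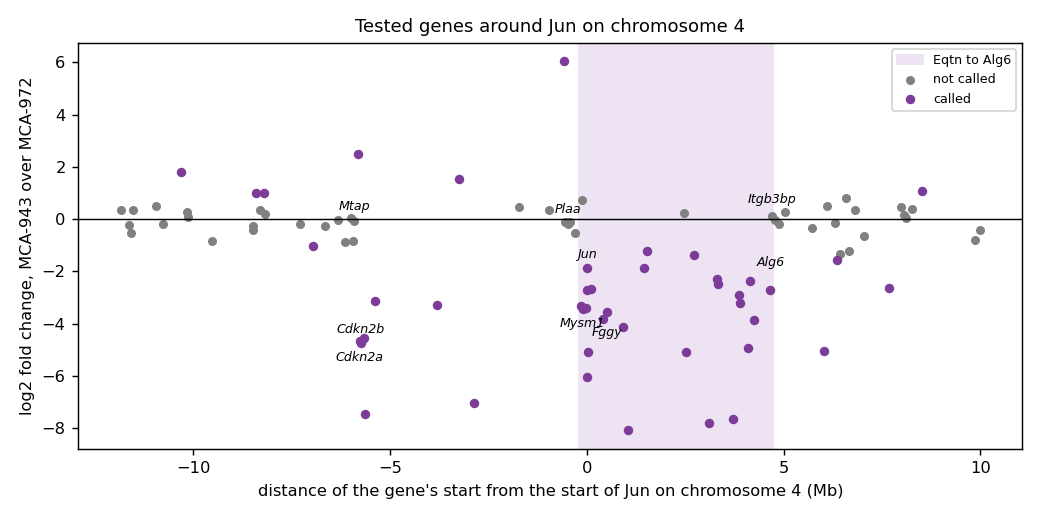
Log2 fold change, MCA-943 over MCA-972, of each tested gene against the distance of its start from that of Jun on chromosome 4 in Mb; purple points are called, grey points not, and the shaded span runs from Eqtn to Alg6. Within the span 26 of 28 genes are called and lie below 0, most genes on either side lie near 0, and Cdkn2a and Cdkn2b lie low beside Mtap; values of genes with 0 or few counts in a line are fitted and set no bound.

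Whole chromosomes were also shifted. The median log2 fold change was 0.65 on chromosome 7, where 29.9% of 1255 tested genes were higher in MCA-943 and 5.58% higher in MCA-972. It was -0.45 on chromosome 3, -0.37 on chromosome 16, -0.36 on chromosome 18, -0.33 on chromosome 5 and -0.32 on the X chromosome, and between -0.06 and 0.16 on the other 14. On chromosome 3, 24.3% of the tested genes were higher in MCA-972 and 7.21% higher in MCA-943. Calls of single genes on these chromosomes in the other paragraphs, such as that of Axl on chromosome 7, are to be read beside these shares. The single tumors of a line differed little, with chromosome 7 medians between 0.64 and 0.67 in MCA-943 tumors and between -0.01 and 0.01 in MCA-972 tumors. Set against MCA-948, MCA-969 and MCA-970, the chromosome 7 median was 0.19, 0.15 and 0.61 for MCA-943 and -0.47, -0.49 and -0.10 for MCA-972. Chromosome 3 was lower in MCA-943 than in all of those lines (-0.49, -0.31 and -0.82), and chromosome 16 was higher in MCA-972 than in all of them (0.33, 0.37 and 0.32) while MCA-943 was level with them (0.02, -0.04 and -0.02). The window of 51 neighboring genes with the highest median, 1.21, lay on chromosome 1 from Pfdn2 to Rgs7 (chr1:171345670-175492500), and the lowest, -2.69, was the window of chromosome 4 that holds Cdkn2a and the stretch above. On chromosome 3, 4 neighboring genes from 5930409G06Rik to Pabpc4l (chr3:45273424-46448219) had at most 3 counts in every MCA-943 tumor and were called. Among them was Pcdh10, an adhesion protein of the protocadherin family, at 0.0678, 0.0493, 0.0378 and 0.0245 CPM in MCA-943 and 11.6, 13.1, 12.8 and 20.02 CPM in MCA-972 (log2 fold change -8.25 ± 0.82 (SE), adjusted p = 1.81e-09).

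**Figure D4:**
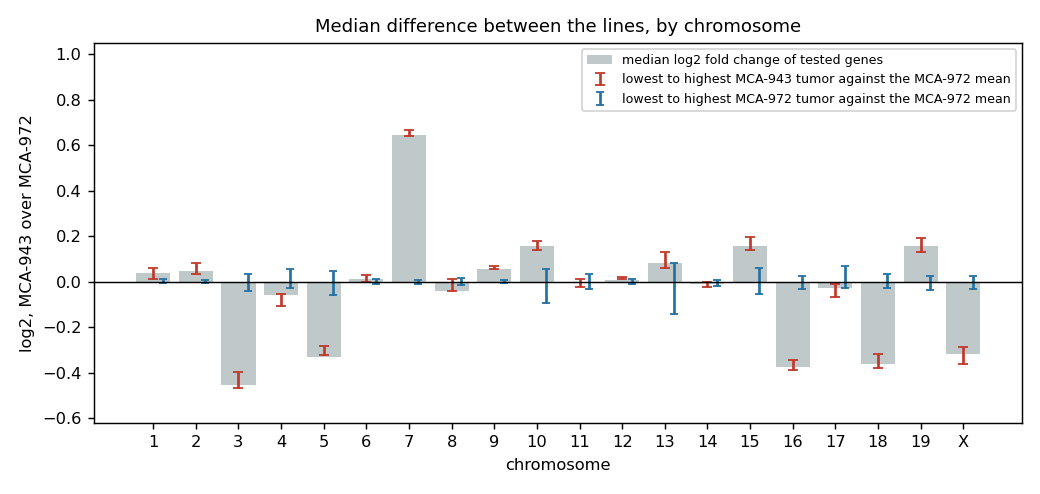
Median log2 fold change of the tested genes of each chromosome, MCA-943 over MCA-972 (grey bars), with the lowest to highest median of the single MCA-943 tumors (red) and MCA-972 tumors (blue) against the MCA-972 mean. Chromosome 7 is high and chromosomes 3, 5, 16, 18 and X are low in MCA-943, by more than the spread between tumors.

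Imprinted genes and the insulin-like growth factor (IGF) axis held some of the largest differences. Imprinted genes are read from the maternal or the paternal copy alone, and many of them control growth before birth. Of 36 tested genes 14 were higher in MCA-972 and 7 in MCA-943 (7 and 6 with the number series), with a median log2 fold change of -0.62. Igf2, a fetal growth factor, measured 0.949, 2.15, 2.19 and 2.11 CPM in MCA-943 and 434, 883, 589 and 766 CPM in MCA-972 (log2 fold change -8.48 ± 0.65 (SE), adjusted p = 1.21e-11). H19, the noncoding gene that neighbors Igf2, measured 121, 161, 158 and 139 CPM against 2227, 4017, 3670 and 3329 CPM (log2 fold change -4.52 ± 0.54 (SE), adjusted p = 4.19e-08). Both lie on chromosome 7 and ran against its shift, and the other 3 lines were between, with Igf2 means of 42.2 to 63.9 CPM. Igfbp2, an IGF-binding protein, was at 0, 0.0247, 0 and 0.0245 CPM in MCA-943 and 17.1, 15.5, 16 and 26.7 CPM in MCA-972, a ratio of 1294 with a 95% counting interval of 358 to 10681. Plagl1, a transcription factor of the imprinted network, measured 0.644, 2.2, 0.983 and 2.62 CPM against 58.1, 40.6, 49.1 and 88.1 CPM (log2 fold change -5.16 ± 0.45 (SE), adjusted p = 1.16e-10). Noncoding genes of the imprinted cluster on chromosome 12 went the other way. Meg3 measured 48.8, 60.2, 42.6 and 51.3 CPM in MCA-943 and 0.601, 1.44, 1.67 and 0.919 CPM in MCA-972 (log2 fold change 5.44 ± 0.55 (SE), adjusted p = 2.12e-09), and Rian measured 78.9, 100.8, 82.3 and 77.2 CPM against 0.901, 1.86, 2.16 and 0.891 CPM (log2 fold change 5.85 ± 0.59 (SE), adjusted p = 2.38e-09). Meg3 was also low in MCA-948 (2.46 CPM) and higher than in MCA-943 in MCA-969 and MCA-970 (171 and 334 CPM). Rtl1, a coding gene of that cluster, was higher in MCA-972 (means 0.00612 and 0.864 CPM).

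Cell identity genes showed mesenchymal expression in the tumors of both lines, with different additions. Host fibroblasts also contribute to this bulk RNA, and their part was not tested. The defining fibroblast markers were high in both, summing to 64855 to 76661 CPM in MCA-943 and 40300 to 49518 CPM in MCA-972, and 1 of 10 was called in each direction. Col1a1, the main chain of collagen I, measured 14318, 13540, 14734 and 12559 CPM in MCA-943 and 7548, 5483, 5783 and 8447 CPM in MCA-972 (log2 fold change 1.02 ± 0.31 (SE), adjusted p = 0.00683), close to the fold threshold, and its call was lost in 10 of 18 alternatives. Of 25 tested fibroblast and mesenchymal genes 3 were higher in MCA-943, among them the surface antigen Ly6a (693 and 33.3 CPM) and S100a4 (123 and 11.1 CPM), and 4 in MCA-972. Lum, the small proteoglycan lumican, measured 43.1, 36.9, 37.8 and 10.5 CPM against 904, 713, 948 and 799 CPM (log2 fold change -4.71 ± 0.58 (SE), adjusted p = 7.06e-08).

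Of 21 tested cartilage and bone genes 9 were higher in MCA-972 (2 with the number series) and 0 in MCA-943, with a median log2 fold change of -0.96. Acan, the aggrecan core protein of cartilage, had 0 counts in every MCA-943 tumor and 148, 86.2, 160.4 and 109 CPM in MCA-972, so its mean was at least 1389-fold higher in MCA-972. Pth1r, the parathyroid hormone receptor (means 0.38 and 6.08 CPM), and Col11a1 (43.2 and 322 CPM) were also higher there. Smooth muscle genes split, with 3 of 21 (14.3%) higher in MCA-943 and 4 (19%) in MCA-972, against 12.2% and 13.4% over all tested genes. Cnn1, the actin-binding protein calponin, measured 0.983, 1.73, 1.78 and 1.54 CPM in MCA-943 and 153, 92.8, 173 and 113 CPM in MCA-972 (log2 fold change -6.46 ± 0.45 (SE), adjusted p = 1.44e-12), while smooth muscle actin Actg2 was higher in MCA-943 (118 and 35.3 CPM).

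Epithelial and mesothelial genes were called toward MCA-943 in 13 of 30 tested genes and toward MCA-972 in 3, with a median log2 fold change of 1.38. Msln measured 28.7, 31, 66.6 and 26.4 CPM in MCA-943 and 0.0546, 0.0734, 0.0782 and 0.0557 CPM in MCA-972 (log2 fold change 9.10 ± 0.76 (SE), adjusted p = 6.24e-11). Jup, the junction protein plakoglobin (means 213 and 13.9 CPM), and Itga6, a subunit of laminin receptors (172 and 11.9 CPM), were higher in MCA-943, whereas Krt8, a keratin of simple epithelia, was low in both (0.736 and 0.173 CPM) and not called. Of 17 tested neural crest and Schwann cell genes 7 were higher in MCA-943 and 2 in MCA-972. The receptor gene Erbb3 (1.45 and 0.117 CPM) and L1cam (30.6 and 5.1 CPM) lay toward MCA-943. Cdh19, a cadherin of Schwann cell precursors, was at 0, 0.0247, 0.0378 and 0.049 CPM in MCA-943 and 38.1, 28.9, 38.2 and 39.2 CPM in MCA-972 (log2 fold change -10.12 ± 0.60 (SE), adjusted p = 5.08e-14), with a call that was lost with the number series in the model. Of 16 tested skeletal muscle genes 6 were higher in MCA-943 and 2 in MCA-972 (2 and 1 with the number series), led by the calcium channel gene Ryr1 (2.67 and 0.263 CPM).

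**Figure D5:**
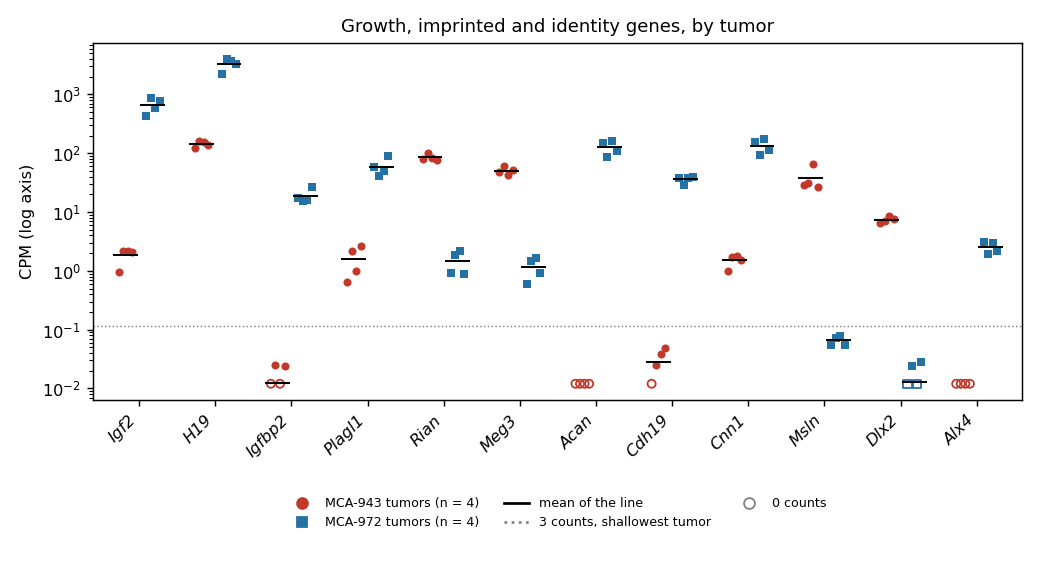
Level in CPM (log axis) of 12 growth, imprinted and identity genes in each tumor; red circles are MCA-943 tumors, blue squares MCA-972 tumors, open symbols at the bottom tumors with 0 counts, black bars the mean of the line, and the dotted line the limit of 3 counts in the shallowest library. The 12 genes were picked among called genes (25.6% of all tested genes), so little overlap was to be found, and the groups do not overlap in any of them. Acan and Alx4 have 0 counts in all 4 MCA-943 tumors.

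Transcription factors that mark position along the body differed between the lines. Of 30 tested Hox genes 8 were higher in MCA-943 and 3 in MCA-972. Hoxa7 measured 21.8, 15.9, 17 and 18.3 CPM in MCA-943 and 0.246, 0.22, 0.495 and 0.473 CPM in MCA-972 (log2 fold change 5.66 ± 0.43 (SE), adjusted p = 6.56e-12), and its neighbors Hoxa5 and Hoxa6 were called in the same direction. Hoxb4 measured 0.169, 0.321, 0.0378 and 0.367 CPM against 1.64, 1.56, 2.29 and 2.28 CPM (log2 fold change -3.0 ± 0.25 (SE), adjusted p = 3.84e-11), and Hoxb2 and Hoxb3 were called with it, but all 3 of these Hoxb genes were higher still in the other 3 lines. Of 43 tested homeobox and T-box genes 8 were higher in MCA-943 and 15 in MCA-972 (10 and 10 with the number series). Dlx2, a factor of craniofacial development, was at 6.58, 6.93, 8.5 and 7.67 CPM in MCA-943 and 0, 0.0244, 0 and 0.0278 CPM in MCA-972, a ratio of 563 with a 95% counting interval of 156 to 4650, and its neighbor Dlx1 (means 5.45 and 0.0812 CPM) lay on the same side. Alx4, a factor of limb and skull development, had 0 counts in MCA-943 and 3.08, 1.93, 2.97 and 2.2 CPM in MCA-972, at least 28.1-fold higher there. Eya1 (0.0689 and 6.44 CPM) was called the same way.

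Matrix genes were called more often toward MCA-972 in collagens and proteoglycans. Of 38 tested collagens 12 were higher in MCA-972 and 6 in MCA-943, and of 36 proteoglycans and related genes 13 and 2, with median log2 fold changes of -0.62 and -0.28. Col12a1, a collagen that coats fibrils (means 116 and 985 CPM), the adhesion modulator Tnc (2377 and 5562 CPM) and the heparan sulfate proteoglycan Gpc3 (0.279 and 17.8 CPM) were higher in MCA-972, and Col28a1 (59.5 and 0.414 CPM), Col15a1 of basement membranes (189 and 14.7 CPM) and the hyaluronan synthase Has1 (61.9 and 3.13 CPM) in MCA-943. With the number series in the model the counts were 5 and 5 for collagens and 4 and 5 for proteoglycans. Of 50 tested matrix proteases and inhibitors 9 (18%) were higher in MCA-943 and 7 (14%) in MCA-972, against 12.2% and 13.4% over all tested genes. Their counts were 7 and 3 with the number series. Mmp9, a gelatinase, measured 405, 317, 273 and 315 CPM in MCA-943 and 27.9, 38, 29.4 and 34.4 CPM in MCA-972 (log2 fold change 3.34 ± 0.32 (SE), adjusted p = 1.07e-09). Adamts9, a protease of proteoglycans, was higher in MCA-972 (18.2 and 148 CPM). Among 30 integrins and laminins 5 (16.7%) were higher in MCA-943 and 6 (20%) in MCA-972 (7 and 4 with the number series). The collagen receptor subunit Itga11 was higher in MCA-972, with means of 3.4 and 113 CPM.

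Adhesion genes of the nervous system were called mainly toward MCA-972. Of 78 tested axon guidance and neural adhesion genes 29 were higher in MCA-972 and 9 in MCA-943 (13 and 6 with the number series), with a median log2 fold change of -0.58. Epha7, an ephrin receptor, was at 0, 0.0247, 0 and 0 CPM in MCA-943 and 12, 11.8, 10.3 and 15.9 CPM in MCA-972, a ratio of 1717 with a 95% counting interval of 308 to 67828. Neurotrimin (Ntm) and its relatives Opcml and Negr1, adhesion proteins of neurons, were also higher in MCA-972, with Negr1 means of 0.0452 and 6.72 CPM. The netrin receptors Unc5a (41 and 10.8 CPM) and Unc5b (168 and 38.8 CPM) lay toward MCA-943. Of 12 non-clustered protocadherins 4 were higher in MCA-972 and 1 in MCA-943. Pcdh17 measured 0.237, 0.296, 0.378 and 2.2 CPM in MCA-943 and 12.5, 15.6, 12 and 23.2 CPM in MCA-972 (log2 fold change -4.26 ± 0.54 (SE), adjusted p = 1.25e-07), and Pcdh1 was higher in MCA-943 (66.8 and 8.4 CPM). Of 41 clustered protocadherins, whose overlapping transcripts share last exons and cannot be separated with certainty, 14 were higher in MCA-972 and 5 in MCA-943 (12 and 2 with the number series). Pcdhgb1 measured 44, 48.4, 49.6 and 35.1 CPM in MCA-943 and 0.928, 1.44, 1.59 and 1.002 CPM in MCA-972 (log2 fold change 5.15 ± 0.31 (SE), adjusted p = 4.16e-14), while its neighbor Pcdhgb2 had means of 1.21 and 22.3 CPM. Of 21 cadherins 9 were higher in MCA-972 and 6 in MCA-943 (4 and 4 with the number series), where E-cadherin Cdh1 (4.58 and 0.89 CPM), P-cadherin Cdh3 (13.4 and 0.95 CPM) and the mesenchymal cadherin Cdh11 (579 and 172 CPM) were higher.

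Signalling pathways differed in ligands, receptors and antagonists. In the Wnt pathway 20 of 51 tested genes were higher in MCA-972 and 7 in MCA-943 (15 and 11 with the number series), with a median log2 fold change of -0.49. Sfrp2, a secreted Wnt modulator, measured 2.13, 3.33, 3.4 and 4.19 CPM in MCA-943 and 319, 183, 174 and 369.5 CPM in MCA-972 (log2 fold change -6.31 ± 0.71 (SE), adjusted p = 1.55e-08). The agonist Rspo3, the receptor Fzd3 (0.131 and 5.93 CPM), and Axin2, Lef1, Nkd1 and Notum, which Wnt signals induce, were called in the same direction, and the ligands Wnt6, Wnt10a and Wnt9a (21.1 and 5.1 CPM) in the other. In the TGF-beta and BMP pathway 13 of 50 were higher in MCA-972 and 9 in MCA-943 (4 and 11 with the number series). Bmp4, a ligand, measured 0.102, 0.074, 0.265 and 0.147 CPM in MCA-943 and 24.8, 19.3, 10.9 and 14 CPM in MCA-972 (log2 fold change -6.91 ± 0.50 (SE), adjusted p = 2.07e-12). The mediator Smad9 and the antagonist Nog were higher in MCA-972 too, while Tgfb1, a suppressive cytokine, measured 94.3, 84.5, 85.9 and 82.9 CPM against 23.1, 23.2, 22.3 and 28.7 CPM (log2 fold change 1.84 ± 0.16 (SE), adjusted p = 8.81e-11), and the receptor Acvrl1 had means of 106 and 9.94 CPM. Of 28 Notch and Hedgehog genes 8 were higher in MCA-943 and 5 in MCA-972 (6 and 3 with the number series). The Hedgehog ligand Dhh (1.76 and 0.099 CPM) and the target Gli1 (2.67 and 0.291 CPM) lay toward MCA-943, and the inhibitor Hhip and the factor Gli2 (6.61 and 26.9 CPM) toward MCA-972.

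Among growth factor receptor kinases and their ligands 21 of 62 tested genes were higher in MCA-972 and 10 in MCA-943 (9 and 11 with the number series), with a median log2 fold change of -0.31. Erbb2, a receptor of the EGF family, measured 28.8, 26.2, 24.7 and 29.2 CPM in MCA-943 and 3.22, 4.11, 4.43 and 4.59 CPM in MCA-972 (log2 fold change 2.73 ± 0.26 (SE), adjusted p = 4.58e-10), its partner Erbb3 was called with it, and the ligands Ereg (18.8 and 133 CPM) and Tgfa were higher in MCA-972. Axl, a receptor kinase of mesenchymal cells, had means of 1481 and 457 CPM, while its ligand gene Gas6 was called toward MCA-972. Fgf2 (17.5 and 2.61 CPM) and Fgf10 (0.458 and 4.13 CPM) lay on opposite sides.

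Retinoid genes were called in both directions. Retinoic acid is made from vitamin A inside the cell, and CYP26 enzymes remove it. Of 21 tested retinoid genes 7 were higher in MCA-943 and 3 in MCA-972, with a median log2 fold change of 0.52. Crabp2, which carries retinoic acid to its receptor, measured 78.2, 64.9, 61.9 and 72.8 CPM in MCA-943 and 2.35, 2.32, 1.62 and 2.23 CPM in MCA-972 (log2 fold change 5.03 ± 0.28 (SE), adjusted p = 1.44e-14). Stra6, a receptor for retinol uptake, measured 152, 99.3, 171 and 153 CPM against 5.87, 4.96, 3.54 and 6.76 CPM (log2 fold change 4.77 ± 0.29 (SE), adjusted p = 7.17e-14). Cyp26b1, which degrades retinoic acid, measured 0.813, 0.765, 0.907 and 1.3 CPM against 104, 75.6, 72.3 and 99.1 CPM (log2 fold change -6.52 ± 0.57 (SE), adjusted p = 1.36e-10). The groups did not overlap in these genes. The other 2 retinoid genes higher in MCA-972 were the plasma retinol carrier Rbp4 (means 0.468 and 35.9 CPM) and Aldh1a2, an enzyme that makes retinoic acid (means 0.00617 and 0.147 CPM), whose call was lost with the number series. Of 34 tested targets of the oxidative stress factor NRF2 5 were higher in MCA-943 and 8 in MCA-972, and the glutathione transferase Gsta4 measured 0.441, 0.345, 0.529 and 0.49 CPM in MCA-943 and 57, 31.6, 50.1 and 56 CPM in MCA-972 (log2 fold change -6.76 ± 0.42 (SE), adjusted p = 1.23e-13), while Gstm2 was higher in MCA-943 (76 and 3.14 CPM). Of 28 tested unfolded protein and heat shock genes 4 were higher in MCA-943 and 0 in MCA-972, all of them heat shock genes. With the number series the counts were 7 and 0. Hspa1b, an inducible HSP70 chaperone that is nearly identical to Hspa1a, measured 1449, 1458, 1712 and 1458 CPM against 263, 233, 213 and 332 CPM (log2 fold change 2.55 ± 0.31 (SE), adjusted p = 8.01e-08), and Hspb1 had means of 188 and 25.5 CPM. Of 19 tested prostaglandin genes 4 were higher in MCA-943, among them the prostacyclin receptor Ptgir (34.1 and 5.21 CPM), and 3 in MCA-972, among them the degrading enzyme Hpgd (0.0987 and 1.97 CPM).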

How the data were processed

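Bulk RNA was measured after tumors had been dissociated into single cells and depleted with CD45 beads. Per the submitters' processing notes, the authors aligned reads with STAR 2.5.3a to GRCm38 and counted them with featureCounts 1.5.2, and the column names of the deposited table mention deduplication by molecular identifiers; the strand setting is not given in the sources used here. The deposited values are raw counts for 48440 genes in 30 tumors, with 0 columns left unmapped. GENCODE mouse release 21 named 48058 of the genes.

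Counts were normalized by TMM and filtered by filterByExpr, which kept 16862 genes, and edgeR 4.0.16 (R 4.3.3) fitted 1 coefficient per line to all 30 tumors with robust quasi-likelihood tests and Benjamini-Hochberg adjustment over all tested genes. The lines and lists were chosen with earlier results of these data known, so list counts are descriptions. Named genes were the 12 protein-coding genes with the largest fold change at 10 CPM or more in the higher line and the 8 genes with the largest CPM difference in each direction, up to 4 called members per list and direction, defining members of lists, genes that the study names, and genes of runs and windows of neighbors. Further members of the same lists (such as Gbp2, Ereg, Gas6, Axin2, Cdh11 and Pmaip1), the genes not called, the overlapping genes and the genes at the ends of the chromosome 4 stretch were named after their values were seen. Folds against 0 counts use 3 counts per library, and ratios with 1 to 3 counts carry exact 95% intervals. Some genes are not reported here. The fit was tested on simulated data. Animal codes shared by the lines did not pair the tumors (correlation of deviations 0.185 for 2G, -0.175 for 1G and 0.154 for R). No 2 libraries agreed within sampling noise. Alternatives were DESeq2 1.42.0, limma-voom (limma 3.58.1), DESeq2's size factors, other filters and thresholds, only the 8 tumors, only tumors with the letter a, the number series as a covariate, the animal code as a block and leaving out each tumor; leaving out W-2G and a-1D together, whose leukocyte RNA was highest, was chosen after seeing the data. Summaries used Python 3.11.15 with pandas 2.3.3, numpy 2.4.6, scipy 1.17.1 and matplotlib 3.10.9.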

Additional observations from a re-analysis of the deposited data

Results flagged for a closer look

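Among 142 groups of 4 tumors looked at (the genes given tumor by tumor, and the summed NK cell, leukocyte, interferon and MHC class I lists, in each line), 13 held a tumor set apart from the other 3, by its gap to the nearest tumor on the log2 scale of CPM plus 0.1; chance alone gives about 5% of groups, or 1 in 20. In MCA-943 these were Cd80 in W-2G (27.7 CPM, the highest), Igf2 in W-2G (0.949 CPM, the lowest), Lum in a-R (10.5 CPM, the lowest), Epha7 in a-1D (0.0247 CPM, 1 count against 0) and Hspa1b in a-1G (1712 CPM, the highest). In MCA-972 they were Jun in a-R (13704 CPM, the highest), Tgfb1 in a-R (28.7 CPM, the highest), Gzma in 2G (0.339 CPM, the highest), Crabp2 in 2G (1.62 CPM, the lowest), Tap1 in a-1 (7.78 CPM, the lowest), Cdh19 in a-1G (28.9 CPM, the lowest), Tnfsf9 in a-1G (0.0489 CPM, the lowest) and Ifng in 2G (0 CPM). For each of these genes that was tested, leaving out the tumor set apart kept the call between the lines.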

How the results depend on the processing

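The genes higher in MCA-943 numbered 4708 without a fold threshold and 777 at a log2 fold change of at least 2, and those higher in MCA-972 numbered 4710, 1211 and, at a mean of at least 1 CPM, 1291. Leaving out each tumor in turn gave 1952 to 2135 and 2212 to 2359, and the animal code as a replicate block gave 2003 and 2157. The share of calls higher in MCA-943 moved from 47.8% to 53.7% at a mean of at least 1 CPM and to 54.2% with the number series in the model. Without a fold threshold the genes apart from all other lines numbered 2003 (MCA-943 above), 1630 (MCA-943 below), 925 (MCA-972 above) and 807 (MCA-972 below), and with the number series MCA-972 was above all in 179. The same model gave 33 interferon-stimulated genes. Chromosome medians with DESeq2's size factors were -0.49 (3), -0.37 (5), 0.61 (7), -0.41 (16), -0.40 (18) and -0.36 (X), and with the number series -0.59 (3), -0.30 (5), 0.71 (7), -0.43 (18) and -0.38 (X), and at a mean of at least 1 CPM -0.41 (3) and 0.67 (7). The small medians of chromosomes 1 and 12 turned to -0.003 and -0.033 with the size factors, and that of chromosome 12 to -0.094 with the number series. With the number series 7 named genes turned their sign, none of them called then, namely Gstt1 (-0.17), Gzma (-3.19), Il10 (1.68), Klrb1c (-0.29), Ncr1 (-0.63), Trbc1 (-2.60) and Xcl1 (-0.78), and Lcp1 turned to -0.38 without W-2G and a-1D. Beside the genes that turned their sign, 87 of 318 named genes lost their call with the number series, 26 without W-2G and a-1D, 15 with the block and at most 5 with DESeq2, limma-voom, the size factors or no filter. Leaving out 1 tumor also moved small counts, of the Notch and Hedgehog genes higher in MCA-972 to 3 (MCA-972 a-R), of the clustered protocadherins higher in MCA-943 to 3 (MCA-943 a-1D), of the proteoglycans higher in MCA-943 to 4 (MCA-972 2G), and of the Hippo targets higher in MCA-972 to 1 (MCA-972 2G). The causes were not tested. The number series is estimated through 2 other lines, and genes near 3 counts per library set limits only.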

Other observations

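Of 48 tested cell cycle genes 1 was called, E2f8, higher in MCA-943 (43.6 and 19.4 CPM), with a call that was lost with the number series in the model. That model called 4 cell cycle genes higher in MCA-972 and 0 in MCA-943, and their median log2 fold change was -0.41 (-0.09 without it). Of 80 tested nuclear genes of the respiratory chain 2 were called, Uqcrc2 (137 and 64.6 CPM) and the testis form Cox6b2 (1.18 and 0.474 CPM). The 11 tested mitochondrial genes of the same chain did not follow, with 5 higher in MCA-972 and 1, mt-Nd3, higher in MCA-943, and their sum was 4715 to 7480 CPM in MCA-943 and 10972 to 14924 CPM in MCA-972. Cholesterol synthesis was called in 2 of 30 genes in each direction, with the exporter Abca1 higher in MCA-972 (29.99 and 101.4 CPM). Glycolysis and hypoxia genes were called in 3 of 41 in each direction, with Pfkp and Gpi1 toward MCA-943 and Pfkfb3 (17.8 and 95.7 CPM) and Vegfa (126 and 278 CPM) toward MCA-972. The glycolysis and hypoxia genes called toward MCA-972 numbered 8 without the MCA-943 tumor a-1G and 6 without the MCA-972 tumor 2G, and with the number series 5 were called toward MCA-943 and 1 toward MCA-972.

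Of 23 tested immediate early genes 8 were higher in MCA-943, including Egr2 (76.5 and 14.9 CPM), Klf2 (124 and 27.7 CPM) and Nr4a1 (951 and 331 CPM), and 1, Jun, was higher in MCA-972. These counts were 12 and 1 with the number series. Of 43 Ras regulators and ERK output genes 6 (14%) were higher in MCA-943, with Rras (86.6 and 28.5 CPM) and the GTPase-activating protein Rasa4 (23.1 and 8.73 CPM). In MCA-972 4 (9.3%) were higher, with Etv5 (42.5 and 106 CPM). Of 21 Hippo target genes 2 (9.52%) were called in each direction. The shares over all tested genes were 12.2% and 13.4%. Of 10 tested genes of the aryl hydrocarbon receptor pathway, through which MCA acts on cells, 3 were higher in MCA-972 and 0 in MCA-943. With the number series 1 was called in each direction. The 3 were Ahr (2.94 and 7.28 CPM), Ahrr and Arnt2, and Ahr was higher still in MCA-948 (22.6 CPM) and MCA-969 (10.7 CPM). Of 16 tested germline and placental genes 6 were higher in MCA-943, with the prolactin relatives Prl2c2 and Prl2c3, whose near-identical copies make their counts uncertain, and 3 in MCA-972, with Dppa2, which had 0 counts in all MCA-943 tumors. Xist, the noncoding RNA of the inactive X chromosome, was at 550.3, 583, 529.9 and 543 CPM in MCA-943 and 464, 531, 513 and 416 CPM in MCA-972, and its means were 0.0488 to 0.179 CPM in the other 3 lines; it was not called between MCA-943 and MCA-972 (adjusted p = 0.464 in edgeR).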
